A study of Drosophila melanogaster with 3 samples.

Results

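Chromatin immunoprecipitation and sequencing (ChIP-seq) placed the CG5245 protein in the introns of several Hedgehog, Wingless, Dpp and JAK/STAT pathway genes, and at the promoter of hardly any of them. The genes described are 30 components of these 4 signalling pathways out of 13945 protein-coding genes, taken from a fixed list by gene symbol. All 30 symbols were found in the Ensembl gene models. The list holds 5 Hedgehog genes (hh, ptc, smo, ci, en), 7 Wingless genes (wg, fz, fz2, arm, pan, Axn, Apc), 6 JAK/STAT genes (upd1, upd2, upd3, dome, hop, Stat92E) and 12 Dpp genes (dpp, scw, tkv, sax, put, Mad, Med, shn, brk, sog, tld, tsg). By role there are 7 ligands, 8 receptors and membrane transducers, 9 nuclear proteins, 3 cytoplasmic components and 3 extracellular modulators.

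The samples were whole Drosophila melanogaster embryos of both sexes, aged 0 to 16 h, from a transgenic line that stably carries CG5245 with green fluorescent protein (GFP) at its C terminus. The pull-down used an antibody to GFP according to the sample descriptions, whereas the antibody field reads CG5245. A possible control named in the labels was not analysed here. There were 3 biological replicates of this 1 group and no other genotype, stage or treatment, so each value comes from embryos carrying the transgene. Which cells express the fusion, and whether the untagged gene is also present, is not given in the labels, and whole embryos mix many cell types. The deposited lists on the dm6 assembly hold 3670 reproducible peaks, 30000 candidate regions from the pooled replicates, and 30000, 30000 and 29608 candidate regions from replicates 1, 2 and 3. The lists carry no read counts, so sequencing depth is unknown and no counting interval is given. CG5245 encodes a zinc finger protein with C2H2 fingers, which many DNA-binding proteins carry.

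All 4 pathways carry a signal from a secreted ligand, through membrane receptors, to a nuclear protein that changes transcription. In the embryo, Hedgehog and Wingless signal between neighbouring cells of each segment. Dpp and its partner Scw pattern the dorsal side, and the Unpaired ligands act through JAK/STAT in segmentation and later in several organs. Several genes of these pathways have long introns, and regulatory elements of dpp, wg, hh and ptc are known to lie far from their start sites.

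A reproducible peak here belongs to the authors' set chosen by the irreproducible discovery rate (IDR), which compares how regions rank in the replicates. A peak of the set need not rank alike in every replicate, as the ranks given below show. The position of a peak is its summit. A gene was counted at its promoter when a summit lay within 500 bp of any of its transcription start sites (TSSs), and in its body when a summit lay between gene start and gene end. Signal values are the authors'. Ranks were assigned here by signal within each list on the 6 main chromosome arms, with rank 1 the strongest. Signals are compared only within a list, whereas ranks are also set side by side between lists. Shares over the 30 genes are given beside the same shares over all protein-coding genes, without a test, because the list was chosen with results of these data known.

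Promoters of the pathway genes were nearly free of reproducible peaks, while their gene bodies held many. Of the 30 genes, 1 (shn, 3.33%) had a reproducible summit within 500 bp of a TSS, against 15.8% of all protein-coding genes. Inside gene bodies, 9 of the 30 had a reproducible summit, against 9.85% of all protein-coding genes. These 9 were ptc, fz, fz2, Stat92E, dpp, tkv, Mad, shn and sog, and together they held 26 summits. The promoter count was 0 with windows of 250 bp, against 12.5% of all protein-coding genes, and 4 with 1000 bp (Mad, Stat92E, brk and shn), against 18.5%. To leave out a replicate, the reproducible set was replaced by the strongest regions shared by the remaining replicates. These were fewer than the reproducible peaks, with 2759 without replicate 1, 2697 without replicate 2 and 2853 without replicate 3. With these shared regions the promoter count was 0 without replicate 1, against 11.8%, and 0 without replicate 2, against 11.9%. The body count from shared regions was 8 without any 1 replicate, against 7.88% to 8.22%. From reproducible summits it was 9 when the 500 bp around each TSS were left out, against 6.41%.

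The counts were repeated with each replicate's own 3670 strongest regions, called top regions below. Within 500 bp of a TSS they marked 4 of the 30 genes in replicate 1 (13.3%, against 16.5% of all protein-coding genes). They marked 2 in replicate 2 (6.67%, against 15.4%) and 2 in replicate 3 (6.67%, against 15.1%). Replicate 1 was thus close to the general share at promoters, and replicates 2 and 3 were further below it. The mean share was 8.89% ± 3.85 of the 30 genes and 15.7% ± 0.728 of all protein-coding genes (SD, n = 3 each). Inside gene bodies they marked 9, 9 and 10 of the 30 genes in replicates 1, 2 and 3, or 31.1% ± 1.92, against 10.1% ± 0.227 of all protein-coding genes (SD, n = 3 each). The same 9 genes were marked in every replicate, and hh in replicate 3 as well. The top region that marks a gene need not lie at its reproducible summit. In replicate 2 the strongest fz2 body region had rank 2835, whereas the reproducible fz2 summits ranked 4605, 8883 and 5308. At promoters the genes differed between replicates. shn was marked in replicates 1 and 2, whereas fz, Apc and Med were marked in replicate 1, Stat92E in replicate 2, and Axn and tkv in replicate 3.

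**Figure D1:**
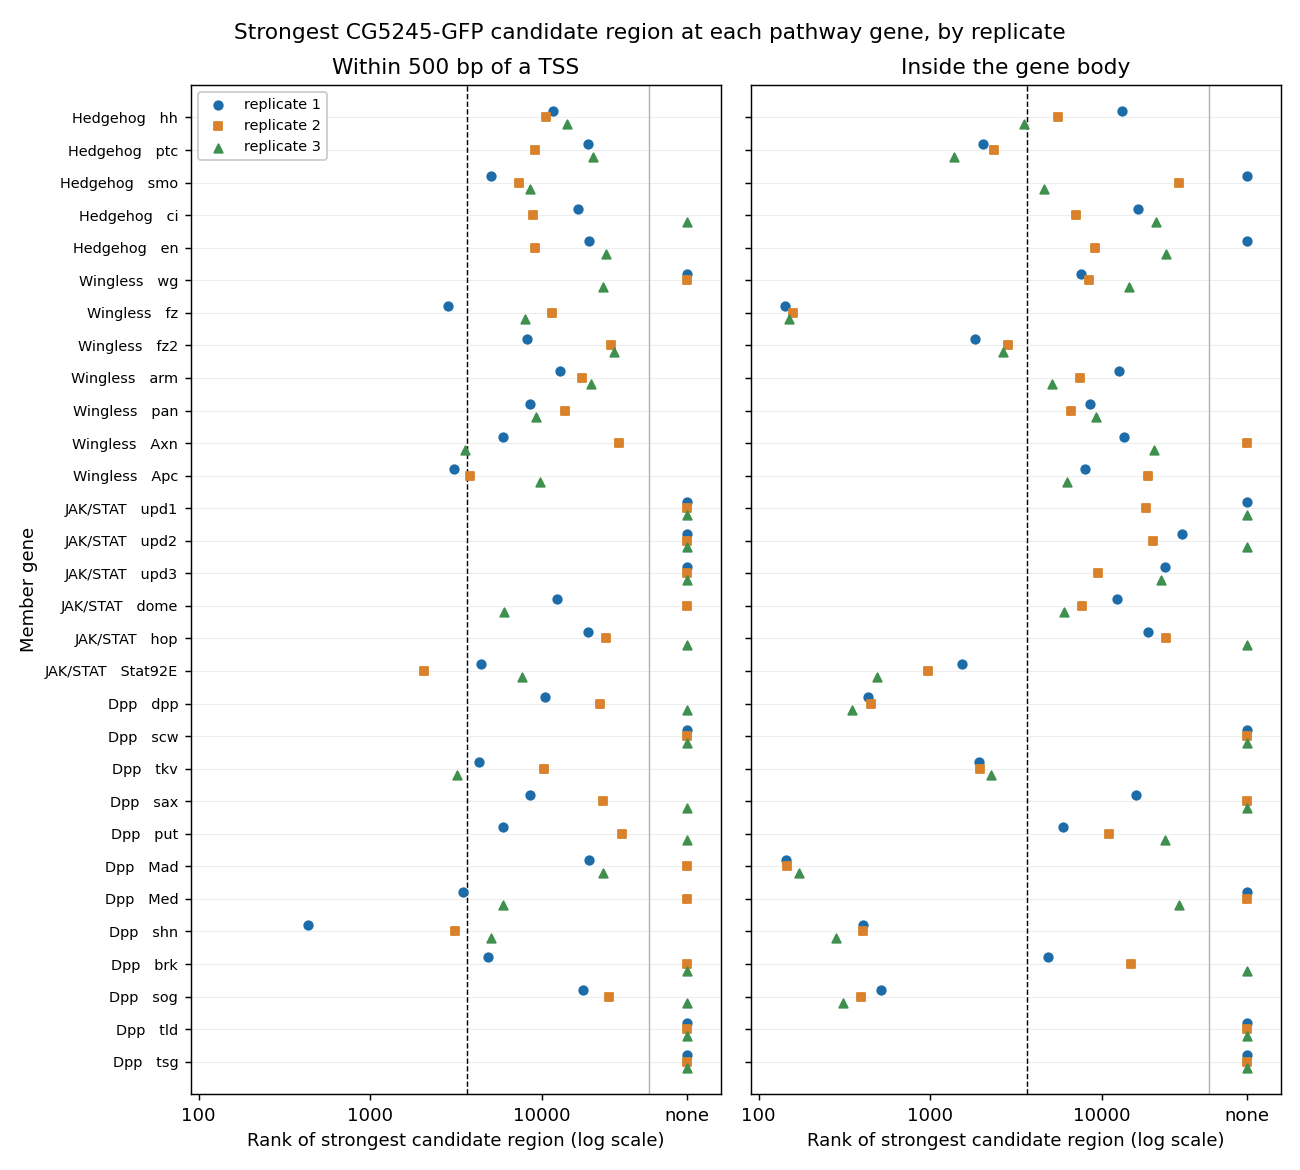
Rank of the strongest candidate region at each of the 30 pathway genes in replicates 1, 2 and 3 (log scale), within 500 bp of a TSS (left) and inside the gene body (right), with rank 3670 as a dashed line and "none" for no candidate region. In gene bodies all 3 replicates of 9 genes lie left of the line, with fz and Mad between 142 and 173, whereas at promoters no gene has all 3 left of it.

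Gene length went along with the body count. The 9 genes with a body summit were 13.6 to 94.4 kb long (median 31.5 kb), and the 21 without one 0.887 to 44.9 kb (median 6.67 kb). Among genes under 10 kb, 0 of 17 pathway genes had a body summit, against 5.31% of all protein-coding genes of that length. From 10 to 30 kb it was 3 of 6, against 32.7%, and at 30 kb and longer 6 of 7, against 46.3%. Only pan, at 44.9 kb on chromosome 4, was that long without a reproducible summit. Per length of gene, the 30 genes held 4.48 summits per 100 kb, against 2.26 per 100 kb over all protein-coding gene bodies. Over all protein-coding genes of 30 kb and longer it was 1.78 per 100 kb. The 7 pathway genes of that length held 0 (pan), 3.18 (fz2 and dpp), 3.82 (tkv), 7.42 (fz), 9.95 (sog) and 10.3 (shn) per 100 kb. fz with 7 of the 26 summits and shn with 6 were among 25 protein-coding genes with at least 6. A pair of the shn peaks overlapped, and both were counted.

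**Figure D2:**
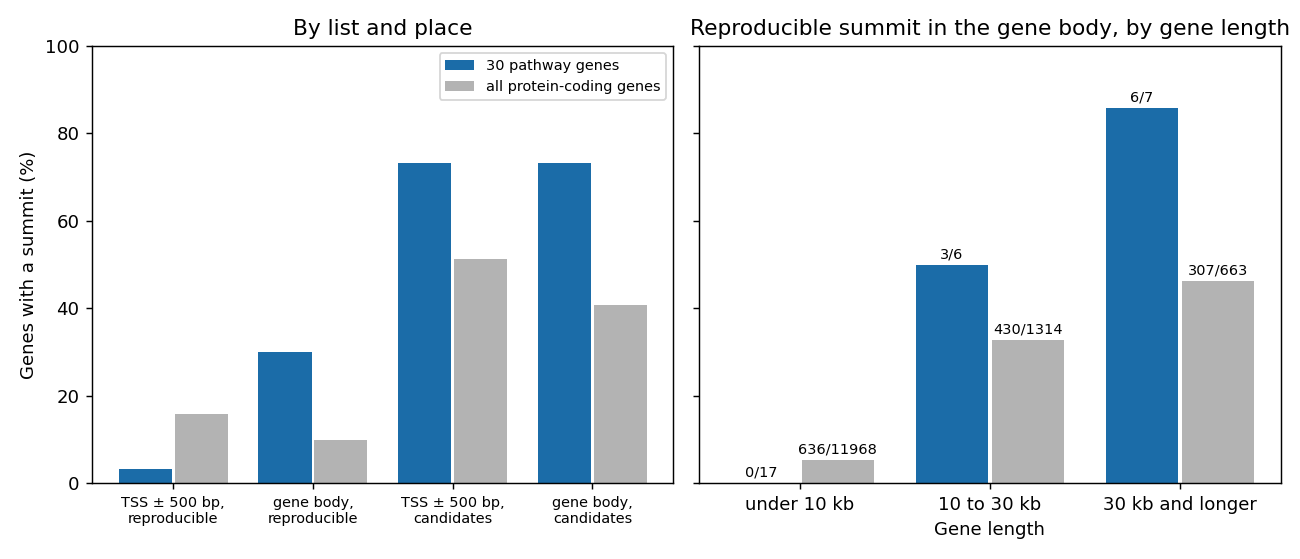
Share of the 30 pathway genes (blue) and of all protein-coding genes (grey) with a summit, in percent, by list and place (left) and, for reproducible summits in the gene body, by gene length with the counts above the bars (right). The blue bar is the lower one for reproducible promoter summits (3.33% against 15.8%) and for genes under 10 kb, and the higher one elsewhere.

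All 26 summits in the 9 genes lay in introns. Over all protein-coding gene bodies, 83.4% of 2032 reproducible summits were intronic, and introns make up 87.1% of the length of these 9 genes. Of the 26, 25 (96.2%) lay over 500 bp from any annotated TSS, against 62.7% of the 2032. From the nearest TSS of their own gene, 6 were over 500 and up to 2000 bp away, 8 were over 2000 and up to 10000 bp away, and 11 lay over 10000 bp away. For 15 of the 26 the nearest TSS of any gene was the pathway gene's own, while the others were nearer to a nested or neighbouring gene. There were 7 before the first coding exon of their gene and 19 within the span of its coding exons.

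**Figure D3:**
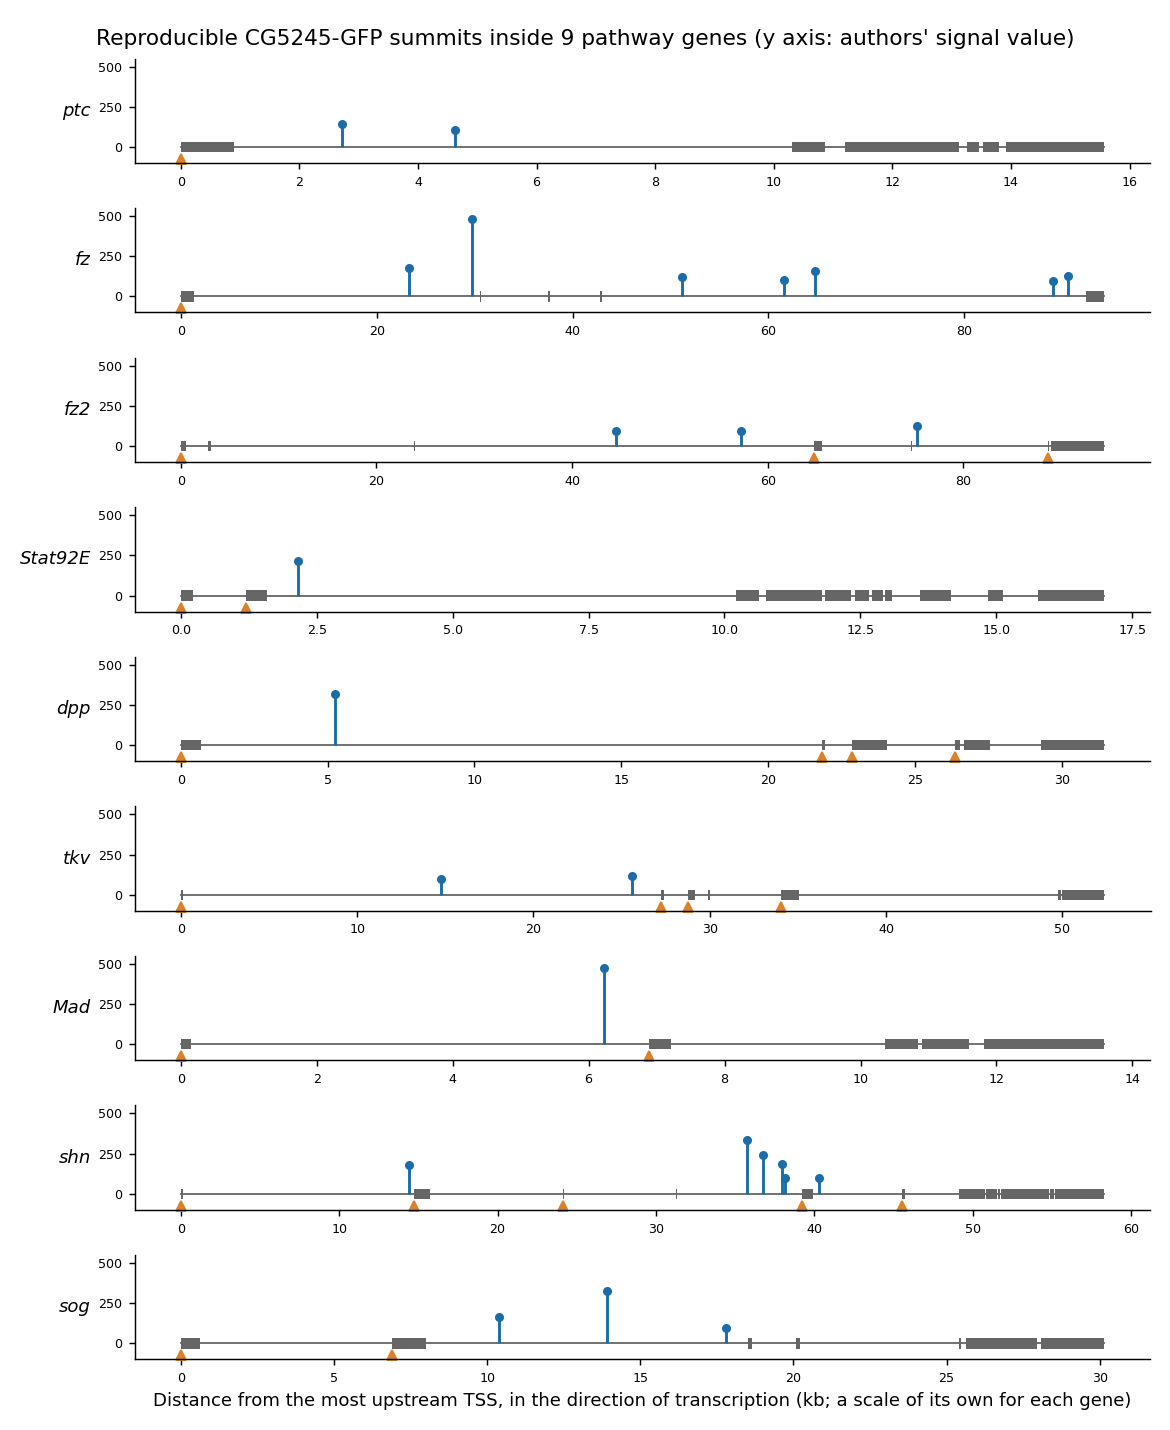
Position of the 26 reproducible summits in the 9 pathway genes that hold any, by distance from the most upstream TSS in kb (x axis, scaled for each gene) and the authors' signal value (y axis), with exons as grey boxes and TSSs as orange triangles. Every summit stands between exons, and 5 of the 6 in shn lie between 35.8 and 40.3 kb.

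Several of the stronger summits ranked high in each replicate and in the pool. fz had rank 142 in replicate 1, 158 in replicate 2, 151 in replicate 3 and 141 in the pooled list. Mad had ranks 144, 146 and 173 in replicates 1, 2 and 3. In sog the ranks were 518, 394 and 312, in dpp 437, 454 and 349, and in Stat92E 1534, 967 and 493. The sequence within 50 bp of these 5 summits is shown because each is the strongest summit of its gene and had a top region in every replicate. shn and ptc also meet this criterion, with strongest summits of pooled rank 353 and 1925, and their sequences are not reported here. It is the plus strand of dm6 from the RefSeq Release 6 assembly, at chr3L:14304011-14304111 (fz), chr2L:3153371-3153471 (Mad), chrX:15619471-15619571 (sog), chr2L:2433589-2433689 (dpp) and chr3R:20550104-20550204 (Stat92E). Capitals mark letters that match one of the motifs listed further on.
fz: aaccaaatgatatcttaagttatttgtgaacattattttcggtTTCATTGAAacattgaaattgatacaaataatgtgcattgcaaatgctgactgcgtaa
Mad: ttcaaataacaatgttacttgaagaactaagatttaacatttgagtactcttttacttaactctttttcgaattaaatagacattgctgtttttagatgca
sog: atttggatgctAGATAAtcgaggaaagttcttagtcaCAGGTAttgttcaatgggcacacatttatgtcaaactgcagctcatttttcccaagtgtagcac
dpp: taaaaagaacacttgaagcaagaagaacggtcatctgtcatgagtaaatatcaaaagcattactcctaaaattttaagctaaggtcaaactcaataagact
Stat92E: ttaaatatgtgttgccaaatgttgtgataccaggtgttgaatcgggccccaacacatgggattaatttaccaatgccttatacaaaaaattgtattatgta

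These windows were rich in A and T, with 71.3% in fz, 74.3% in Mad, 60.4% in sog, 68.3% in dpp and 65.3% in Stat92E. Over the 26 summits the median was 65.8%, with a range of 55.4% to 76.2%. The median of all 3670 reproducible summits was 65.3%, and of the 3670 lowest-ranked pooled candidates 57.4%. The pathway summits were thus close to the whole reproducible set in base composition.

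No searched motif was common to the pathway summits. Both strands were searched, and a match only says that the letters are present. The word TTCNNNGAA, the core bound by Stat92E, occurred at 2 of the 26 summits, in fz and shn, and at 3.05% of all reproducible summits. GAGAG, bound by the GAGA factor, occurred at 3 (10.2% of all), CGATA, bound by BEAF-32, at 3 (16.6%), and AGATAA, bound by GATA factors, at 3 (6.98%). CAGGTA, the core bound by Zelda, occurred at 2 (2.10%), in shn and sog, and the repeat CACACAC at 1 (2.40%). None of the 26 held CTTTGAT, a site of Pan (1.74% of all), GGCGCC, a site of the Dpp repressor Brk (2.75%), CAGCTG (4.06%), GGTCACAC, bound by M1BP (0.899%), or TATCGATA, bound by DREF, which contains CGATA (1.88%). At 16 of the 26 no motif of the list matched.

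Of 7 ligand genes, dpp alone had a reproducible summit, and 5 had a pooled candidate in the body. dpp, which encodes the main BMP ligand of the fly, lies on chromosome 2L from 2428372 to 2459823 and has 4 TSSs. Its peak, from 2433525 to 2433734, had a signal of 318 and its summit 5.27 kb downstream of the most upstream TSS, in an intron of 21142 bp before the coding sequence. The dpp promoters themselves had a weak candidate of rank 18072 in the pool, with ranks 10431 and 21901 in replicates 1 and 2 and none in replicate 3. hh, the Hedgehog ligand, had its best promoter candidate at rank 10145, and in its body the ranks were 13035, 5586 and 3515 in replicates 1, 2 and 3. wg, the Wingless ligand, had a pooled promoter candidate of rank 15561 and a body candidate of rank 11423. For upd1, upd2, upd3 and scw the promoter windows were empty of candidates in all 3 replicates. The 3 upd genes encode the Unpaired cytokines, which sit close together on the X chromosome, and scw the BMP ligand that works beside Dpp. In their bodies upd2 and upd3 had pooled candidates of rank 27842 and 20905, upd1 had one in replicate 2 alone (18196), and scw had none in any list.

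Receptor genes held 14 of the 26 summits, in 4 of 8 genes. They cover 279 of the 580 kb of the 30 genes and held 5.02 summits per 100 kb, against 4.87 in genes of nuclear proteins. Of the 14 summits, 5 had top regions in all 3 replicates, against 6 of 8 in genes of nuclear proteins. fz, which encodes a Wingless receptor, spans 94.3 kb of chromosome 3L from 14274343 to 14368639 and held 7 of the 14. Its strongest peak, from 14303935 to 14304194, had a signal of 485 and lay 29.7 kb into the gene, in an intron of 29170 bp. The other 6 fz summits had signals of 95.1 to 177. They lay 23.3 to 90.6 kb into the gene, and 3 of them had top regions in all 3 replicates. The fz summit at 51.2 kb was also inside the nested lncRNA:CR45025. fz2, which encodes the second Wingless receptor and is as long (94.4 kb), held 3 weak summits with signals of 94.2, 95.3 and 122, none with top regions in all 3 replicates. The strongest of these had ranks 1836, 4605 and 3083 in replicates 1, 2 and 3.

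The Hedgehog receptor gene ptc held a pair of summits in its 9401 bp intron, 2.72 and 4.62 kb downstream of the TSS. Their signals were 143 and 105, and their ranks 2390, 2626 and 1374, and 2033, 2364 and 4086, in replicates 1, 2 and 3. tkv, which encodes a type I receptor for Dpp, also held a pair, with signals of 116 and 95.3. The weaker one had ranks 1935 and 2842 in replicates 1 and 2 and no region in replicate 3, so it rested on 2 libraries. smo (a Hedgehog signal transducer), dome (the JAK/STAT receptor), put (a type II Dpp receptor) and sax (a type I receptor) had no reproducible summit. The best pooled promoter candidates had rank 5012 in smo, 5679 in dome and 11648 in put. sax had none in the pool, and ranks 8560 and 22608 in replicates 1 and 2.

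Nuclear proteins of the pathways accounted for 8 summits, in 3 of 9 genes. Mad encodes the Smad protein activated by Dpp receptors and lies on chromosome 2L from 3146056 to 3159643. Its peak, from 3153283 to 3153547, had a signal of 473, with the summit 668 bp upstream of an internal TSS and 6.22 kb downstream of the distal one. Stat92E encodes the STAT transcription factor and had a peak of signal 216 on chromosome 3R. Its summit, at 20550154, lay 953 bp downstream of a TSS. A weaker region at the Stat92E promoter stood just outside the reproducible set, with rank 3747 in the pool and its summit 346 bp downstream of a TSS. The strongest regions there had ranks 4427, 2051 and 7622 in replicates 1, 2 and 3. The weakest pathway summit just inside the set was in fz2, with rank 3571.

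shn encodes a zinc finger protein that acts with Mad and Med to repress brk. It spans 58.3 kb on chromosome 2R from 11159086 to 11217394, has 5 TSSs and held 6 summits. Its strongest summit, at 11194859 with a signal of 332, ranked 407, 407 and 281 in replicates 1, 2 and 3. The next, with a signal of 244, ranked 500, 843 and 1056. These and 3 weaker summits lay between 35.8 and 40.3 kb from the most upstream TSS, around an internal TSS. A pair of them (signals 183 and 95.9) had overlapping intervals and the same replicate regions behind them. The only promoter summit of the 30 genes was also in shn, 297 bp upstream of another internal TSS, with a signal of 181. It ranked 436 in replicate 1, 3120 in replicate 2 and 6703 in replicate 3, so replicate 1 stood far above the other two.

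The remaining 6 nuclear genes had no reproducible summit in promoter or body. Med, the partner Smad, had a pooled promoter candidate of rank 5885, with rank 3475 in replicate 1, none in replicate 2 and 5921 in replicate 3. pan, the TCF protein of Wingless signalling, had one of rank 7270, arm (beta-catenin) of rank 9031, brk (the Dpp repressor) of rank 13735 and ci (the Hedgehog effector) of rank 21611. en, which encodes a homeodomain protein that maintains hh transcription, had no pooled candidate, and ranks 18697, 9148 and 23667 in replicates 1, 2 and 3. Its nearest reproducible summit lay 65.5 kb from a TSS.

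Cytoplasmic components had no reproducible summit in any of 3 genes, though candidates stood at their promoters. Apc and Axn, which encode scaffolds of the complex that destroys Arm, had pooled promoter candidates of rank 4156 and 4881. For Apc the ranks were 3060, 3785 and 9797, and for Axn 5919, 27950 and 3562, in replicates 1, 2 and 3. hop, the Janus kinase, had one of rank 14794. Among extracellular modulators, sog, which encodes a Chordin-like binder of BMP ligands, held 3 summits in an intron of 10523 bp, on the X chromosome in the gene from 15603283 to 15633434. Their signals were 324, 163 and 97.5, and the weakest had ranks 7666, 1719 and 3170 in replicates 1, 2 and 3. tld, which encodes the protease that cleaves Sog, and tsg, which encodes a Sog cofactor, had no candidate region in promoter or body in any list. Depth is unknown, so a missing region does not show that the protein was absent.

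**Figure D4:**
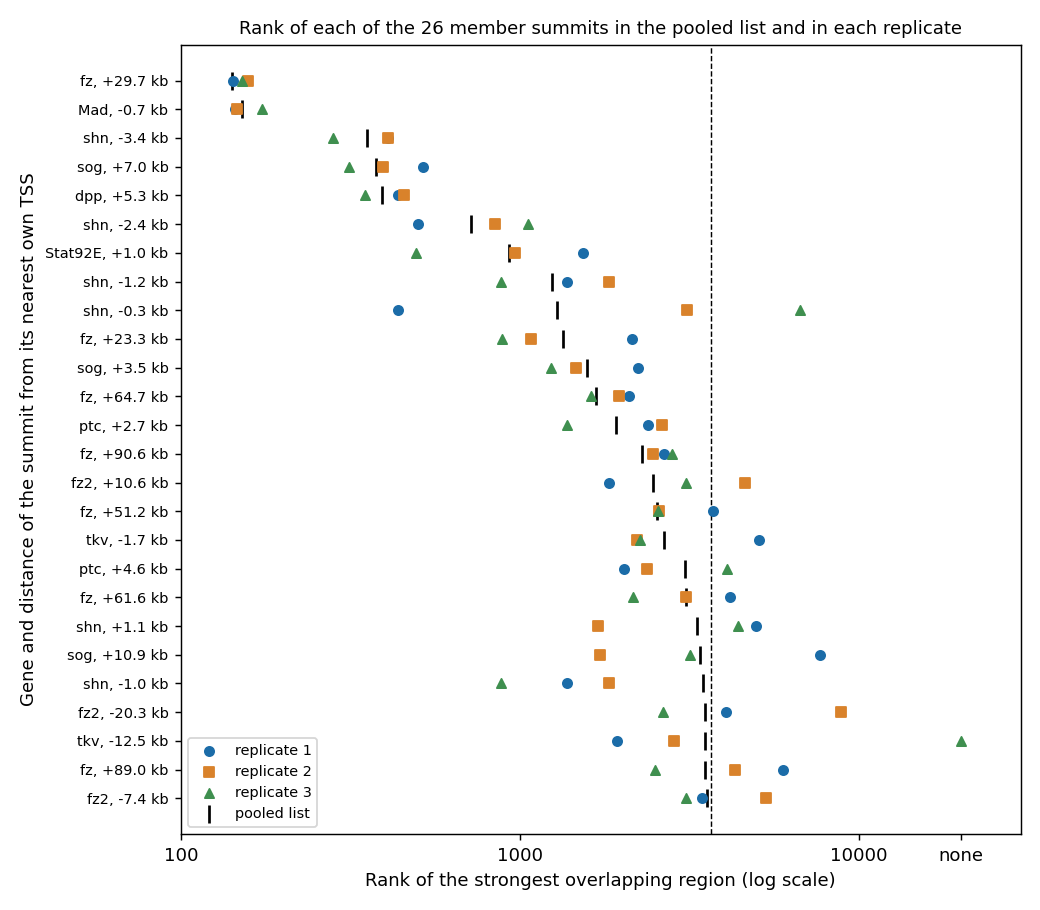
Rank of each of the 26 summits in the pooled list (black bar) and of the strongest overlapping region in replicates 1, 2 and 3 (log scale), labelled by gene and signed distance from the nearest own TSS, with rank 3670 as a dashed line and "none" for no overlapping region. The replicates lie close together at the strongest summits of fz and Mad and spread widely at the shn summit 0.3 kb upstream of a TSS (436 to 6703).

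Set out by pathway, reproducible body summits were found in 1 of 5 Hedgehog, 2 of 7 Wingless, 1 of 6 JAK/STAT and 5 of 12 Dpp genes. They numbered 2, 10, 1 and 13 summits, or 4.22, 3.61, 2.20 and 6.19 per 100 kb of gene. By role, 1 of 7 ligands, 4 of 8 receptors, 3 of 9 nuclear proteins, 0 of 3 cytoplasmic components and 1 of 3 extracellular modulators had one. The groups hold 3 to 12 genes of unequal length and were not tested against each other. Median lengths were 9.33, 12.5, 7.27 and 5.50 kb for Hedgehog, Wingless, JAK/STAT and Dpp genes. By role they were 7.36 kb for ligands, 11.5 kb for receptors and 9.33 kb for nuclear proteins. Cytoplasmic components had a median of 12.4 kb and extracellular modulators of 3.78 kb, against 2.17 kb for all protein-coding genes.

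Support by replicates was counted for each pathway summit. Of the 26, 14 (53.8%) overlapped top regions in all 3 replicates, 9 in 2 and 3 in 1, against 66.5% of the 3670 reproducible peaks in all 3. The 14 include the pair of overlapping shn peaks with the same replicate regions, and the shares were not tested against each other. Their median signal was 136, against 148 for the whole set. The 14 lay in 7 genes, and fz2 and tkv had none of them.

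Candidate regions were frequent at the pathway genes. In the pooled list 22 of 30 (73.3%) had a candidate summit within 500 bp of a TSS, against 51.2% of all protein-coding genes. Likewise 22 of 30 (73.3%) had one in the body, against 40.8%. These shares were not matched for gene length, with a median of 9.18 kb for the 30 genes and 2.17 kb for all protein-coding genes. Nor were they matched for the number of TSSs, each of which adds a promoter window. The 30 genes had from 1 (tsg, for example) to 5 (shn) TSSs each. Promoter candidates outside the reproducible set spread over a wide range of ranks in the pooled list of 30000. Over the 21 genes with a promoter candidate but no reproducible one, the best rank per gene ran from 3747 to 29575, with a median of 11648. By role, a promoter candidate was found for 7 of 8 receptors, 8 of 9 nuclear proteins, 3 of 3 cytoplasmic components, 3 of 7 ligands and 1 of 3 extracellular modulators, and these shares were not tested against each other. fz2 and fz held 57 and 52 candidate summits in their bodies.

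A few reproducible summits stood outside both windows with a pathway gene as the nearest protein-coding gene, and these were chosen after their values were seen. brk had summits 772 and 1992 bp upstream of its TSS, both inside CG1677, with signals of 185 and 107. The nearer one ranked 1226, 1542 and 956 in replicates 1, 2 and 3. Upstream summits were also found 1.77 kb from fz (signal 175), 1.72 kb from dpp (125), 5.30 kb from ptc (330) and 11012 bp from wg (176). The ptc one ranked 261, 510 and 413 in replicates 1, 2 and 3, above the summits inside the gene. One summit lay 14.0 kb downstream of the upd1 TSS (signal 123).

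Further genes of the same pathways, 60 in number, had promoter summits at about the general rate. Of these, 11 (18.3%) had a reproducible promoter summit, against 15.8% of all protein-coding genes, and 21 (35.0%) a body summit, against 9.85%. Their median length was 7.52 kb, against 2.17 kb for all protein-coding genes. Of the 60, 83.3% had a pooled promoter candidate and 75.0% a pooled body candidate. The 11 were 3 of 12 Hedgehog, 6 of 24 Wingless, 0 of 7 JAK/STAT and 2 of 17 Dpp genes. The strongest were gish (signal 768), a casein kinase, gro (467), the Groucho corepressor, sgg (420), the GSK3 kinase that phosphorylates Arm, and magu (400), a secreted Dpp modulator. Their summits lay 164, 134, 192 and 299 bp upstream of a TSS, and each was in the top regions of all 3 replicates. The others were rdx (275), dlp (162), nkd (141), Apc2 (135), CkIalpha (113), slmb (107) and Fs (99.0). These include the ubiquitin ligase subunits Rdx and Slmb that act on Ci, and the Wingless feedback inhibitor Nkd. In gene bodies gish, gro, sgg and magu again had the highest signals, from the same summits.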

How the data were processed

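Peak lists from 3 biological replicates of 1 group of embryos were used. Per the text files deposited with the samples, the authors derived candidate regions from the alignments of each replicate and of all 3 together, as input for IDR, and the reproducible set from these lists. Aligner, peak caller and parameters: not given in the sources used here. Each region's score is the peak caller's signal value as deposited. The deposited −log10 q values were read but decided nothing. Lists on dm3 were not used.

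Summits (region start plus offset) were assigned with Python 3.11.15 and pandas 2.3.3 to the gene models of Ensembl release 115 on the 6 main chromosome arms (18164 genes, transposable elements left out). All coordinates are 1-based. Top regions are the 3670 of highest signal in a replicate, and support means an overlap of at least 1 bp. Assignment was tested on simulated data. The 30 genes, the list of 60 further pathway genes (Fs listed there as fs) and the 11 motifs were chosen with earlier results of these data known. All 30 genes are named, of the others those with a promoter summit and the 4 strongest in gene bodies. With 1 group there was no contrast and no test. Reproducible peaks, pooled candidates and replicate lists share their reads, so they are not independent of one another. Alternatives covered the TSS window, signal, replicate support, overlap and leaving out each replicate. For the last, top regions shared by the remaining replicates took the place of the reproducible set, which was not derived anew.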

Additional observations from a re-analysis of the deposited data

How the results depend on the processing

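No paired analysis was possible because there is 1 group. The count of pathway genes with a reproducible promoter summit, 1 of 30, was 0 at 250 bp, 4 at 1000 bp and 0 when support by top regions of each replicate was asked for. Over all protein-coding genes the shares were 15.8% in the main count, 12.5% at 250 bp, 18.5% at 1000 bp and 10.7% with that support. When a replicate was left out, the count from top regions shared by the remaining replicates ranged from 0 to 1, against 11.8% to 12.5%. The count from reproducible peaks was 1 with the nearest TSS only, the upper 50% of peaks by signal, or any overlap of the peak with the window. The general shares there were 11.5%, 8.60% and 17.0%. The body count, 9 of 30 (9.85% of all protein-coding genes), ranged from 6 with the upper 50% by signal (5.80%) to 9. It was 7 with top regions in all 3 replicates (7.19%) and 9 without the 500 bp around each TSS (6.41%). It was 8 from the shared top regions without any 1 replicate (7.88% to 8.22%). Without replicates 1 or 3 the gene lost was fz2, and without replicate 2 it was tkv. The 26 summits became 12 in the upper 50% by signal and 14 with top regions in all 3 replicates. Support in all 3 replicates, 14 of 26, was 13 with an overlap of 50% and 23 with top-region lists 2 times as long. Candidate counts, 22 of 30 each, were 17 to 22. At promoters the main count stood against 51.2% of all protein-coding genes. It was 17 with the upper 50% of candidates by signal (39.1%), 17 at 250 bp (41.3%) and 22 at 1000 bp (59.5%). At 1000 bp the general share thus rose while the pathway count did not. In gene bodies the main count stood against 40.8%, and it was 17 with the upper 50% by signal (25.97%). Depth is unknown, and ranks near 3670 differ between replicates.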
